A study of Arabidopsis thaliana with 24 samples.

Results

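HY5 (AT5G11260) and its homolog HYH (AT3G17609) encode the 2 closely related bZIP transcription factors of the seedling light response, and H3K9ac over both genes was followed in 6 groups of seedlings. They were chosen by name, as the entries of the deposited peak table that carry either gene, and make up 2 of the 17672 genes with a peak. Each has 1 peak. Chromatin was immunoprecipitated with an anti-H3K9ac antibody from whole 2-day-old seedlings of the Columbia-0 ecotype, wild type (wt) or the pif1 pif3 pif4 pif5 quadruple mutant (pifq). Seedlings stayed in true darkness (D), received 1 h of red light at 10 μE following 47 h in the dark (R1h), or developed under white light of 100 μE without interruption (WLc). The labels list 3 H3K9ac libraries per group and 6 input libraries, but the table holds 1 value per peak and group, in which the libraries of a group are combined. No SD, n or p can therefore be given for any value below, differences could not be set against the spread between replicates, and the sequencing depth is unknown.

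HY5 and HYH belong to a family of transcription factors that bind DNA as dimers through a basic region followed by a leucine zipper. They bind motifs with an ACGT core and promote photomorphogenesis, the development of seedlings in light. In darkness the COP1/SPA ubiquitin ligase marks both proteins for degradation, and light stops this. Because HY5 has no activation domain of its own, partners such as B-box proteins work with it. PIF proteins, the bHLH factors missing from pifq, act in the opposite direction and maintain skotomorphogenesis, development in the dark. H3K9ac is a histone mark of transcribed genes.

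Both peaks were wider than the gene they are named for. The HY5 peak lay on chromosome 5 from 3592423 to 3598227, 5804 bp, and only 11 of 17319 distinct peaks, itself included, were at least as long. HY5 itself occupies 3593335 to 3595073 on the minus strand, in 4 exons, and makes up 30.0% of the peak. The peak reached from 3154 bp upstream of the HY5 start site to 2650 bp downstream of it. It also took in all of OCP3, a homeodomain gene, and the 5′ part of AT5G11280, and the table enters the same peak for all 3 genes. The 5′ part of AT5G11250, 849 bp, lay in the peak too (14.6% of it), but the peak is not entered for this gene. The HYH peak lay on chromosome 3 from 6023699 to 6025700, 2001 bp, and started 145 bp upstream of the HYH start site. HYH occupies 6023844 to 6024710 on the plus strand, in 3 exons, and makes up 43.3% of its peak, which is also entered for RBL14, a rhomboid-like gene that starts 85 bp downstream of the end of HYH. Of the distinct peaks, 1933 (11.2%) are entered for more than 1 gene. A signal given for HY5 or HYH is thus an average over a region that other genes share, and the table alone cannot divide it between them.

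**Figure D1:**
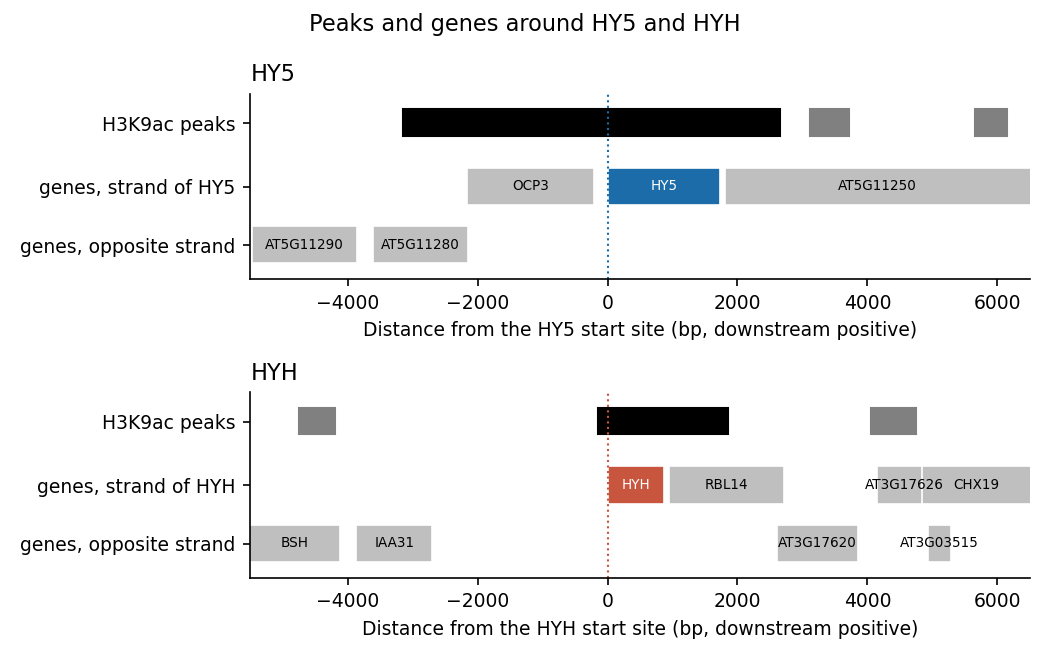
Genes (coloured and grey boxes) and H3K9ac peaks (black for the peak of HY5 or HYH, dark grey for others) against the distance in bp from the start site of HY5 (top) and HYH (bottom), with genes within 5 kb drawn on 2 rows by strand. The HY5 peak of 5804 bp covers HY5, OCP3 and parts of AT5G11280 and AT5G11250, and the HYH peak of 2001 bp covers HYH and part of RBL14.

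The 200 bases before each start site lie wholly within the peak for HY5, where they fill the gap to OCP3, and for HYH the 145 bases nearest to the start site do. They are shown because PIF proteins and HY5 bind short motifs in such regions. They were read from the TAIR10.1 reference, 5′ to 3′ on the strand of the gene, and capitals mark each match to a motif searched. The motifs were the G-box CACGTG, the T/G-box CACGTT, the PIF-binding element (PBE) CACATG and the ACGT core, on both strands, and a G-box or T/G-box always holds an ACGT core. The first window is chr5:3595074-3595273 (minus strand) and the second chr3:6023644-6023843 (plus strand).
HY5: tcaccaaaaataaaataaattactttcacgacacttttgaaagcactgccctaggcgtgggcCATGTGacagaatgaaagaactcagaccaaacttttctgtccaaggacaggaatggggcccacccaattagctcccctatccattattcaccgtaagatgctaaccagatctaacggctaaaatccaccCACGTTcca
HYH: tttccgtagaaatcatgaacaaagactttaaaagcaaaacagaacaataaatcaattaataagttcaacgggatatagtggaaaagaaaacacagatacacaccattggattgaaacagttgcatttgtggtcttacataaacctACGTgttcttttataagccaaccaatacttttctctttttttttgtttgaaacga

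The HY5 window held 1 PBE, which starts 138 bases upstream of the start site and reads CATGTG on this strand, and 1 T/G-box, which starts 9 bases upstream. The HYH window held a single ACGT core, 55 bases upstream. A G-box was in neither window. Among the 37897 windows of 200 bases of all genes of the reference, 8.74% held a PBE, 5.81% a T/G-box, 4.62% a G-box and 35.9% an ACGT core. These matches are a description of the letters and not of bound sites.

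The peaks of both genes, shared with their neighbours, carried more H3K9ac after 1 h of red light than in darkness, in wild type and in pifq. They parted in continuous white light, where the HY5 peak was near its dark level and the HYH peak was not. The HY5 signal, expressed per bp of peak, was 0.559 in wt D, 0.965 in wt R1h and 0.586 in wt WLc. In pifq it was 0.533 in D, 0.834 in R1h and 0.591 in WLc. The R1h groups were thus the highest for HY5 in either genotype, and the other 4 groups lay close together. The HYH signal was 0.487 in wt D, 0.825 in wt R1h and 0.837 in wt WLc. In pifq it was 0.482 in D, 0.775 in R1h and 0.885 in WLc. Only the dark groups were low for HYH.

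**Figure D2:**
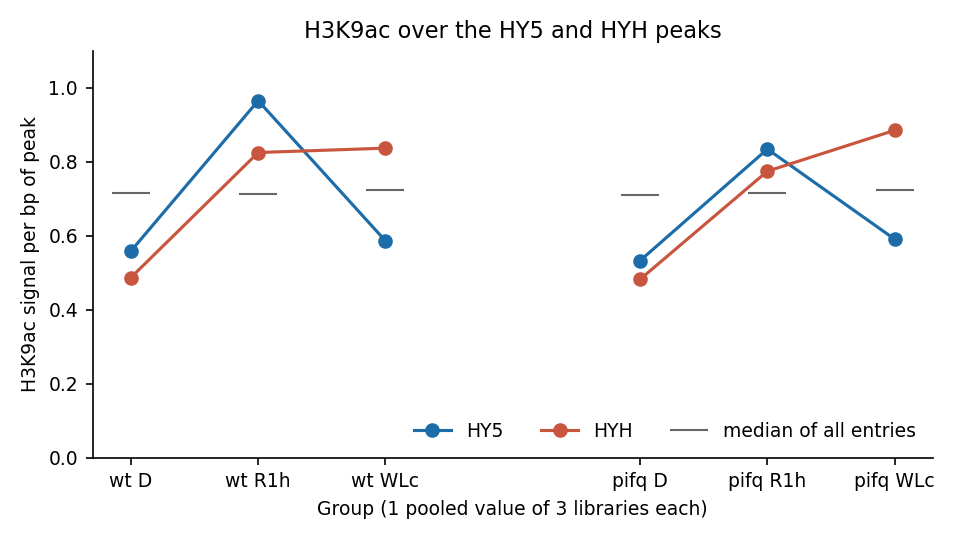
H3K9ac signal per bp of peak (vertical axis) in the 6 groups (horizontal axis) for HY5 (blue) and HYH (red), 1 pooled value each, with the median of all table entries as a grey dash. HY5 has 0.965 in wt R1h and 0.586 in wt WLc, and HYH has 0.825 and 0.837. These are separately grown groups and not a time course.

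The levels can be placed among all entries of the table, whose median signal lay between 0.711 and 0.723 in the 6 groups. HY5 stood at percentile 26.7 of all entries in wt D and at 89.0 in wt R1h. In pifq R1h it stood at 73.0, and in the white-light groups at 25.7 (wt) and 27.3 (pifq). HYH stood at 18.7 in wt D, 69.9 in wt R1h and 75.9 in wt WLc. In pifq D, pifq R1h and pifq WLc it stood at 17.0, 61.6 and 81.1. In darkness both genes were therefore in the lower part of the range. The signal of HY5 per bp exceeded that of HYH in the dark and red-light groups, by ratios from 1.08 in pifq R1h to 1.17 in wt R1h. In white light the order was the other way round, with ratios of 0.701 in wt WLc and 0.668 in pifq WLc. From lowest to highest, the HY5 groups were pifq D, wt D, wt WLc, pifq WLc, pifq R1h and wt R1h, and the HYH groups were pifq D, wt D, pifq R1h, wt R1h, wt WLc and pifq WLc. Without replicates it is unknown which neighbours in these orders differ by more than their spread. Between its lowest and highest group, HY5 spanned 0.78 on the log2 scale and HYH 0.79, more than 87.1% and 87.3% of genes, whose median span was 0.27.

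In wild type, the signal after 1 h of red light was 72.8% above that in darkness for HY5 and 69.4% above it for HYH. Changes were calculated as the difference of log2(signal + 0.0717), a pseudocount of 0.1 of the median signal that slightly understates each change, and calls of higher or lower required a difference of at least 1.5-fold on this scale. On it, HY5 was higher by 0.72 and HYH by 0.68. Both passed this limit, as did 3.41% of all genes (603 of 17672), and 2.42% and 2.65% of genes had a larger increase. The median of all genes was 0.00. In the other direction 111 genes (0.628%) passed the limit. After quantile normalization, which gives all 6 groups the same distribution, the counts were 357 higher and 222 lower.

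Without the PIF quartet the signal after red light was also higher than in darkness at both peaks. The signal in pifq R1h was 56.6% above that in pifq D for HY5 and 60.6% above it for HYH. The log2 changes were 0.58 for HY5, 1.499-fold and so just short of the limit, and 0.61 for HYH, past it. The limit was passed upwards by 1.41% of genes in this comparison and downwards by 0.368%, and 1.41% and 1.27% of genes had a larger increase than HY5 and HYH. The log2 change in pifq was 81.3% of that in wild type for HY5 and 89.5% for HYH. Over the 603 genes past the limit in wild type, the median change was 0.85 in wild type and 0.42 in pifq, and 68.8% of them changed less in pifq than HY5 did and 71.1% less than HYH. As these genes were picked by their wild-type values, a lower median in pifq is in part given by the choice. The genotype difference in the red-light response was −0.13 for HY5 and −0.07 for HYH, and 2.42% of genes differed by at least 1.5-fold in either direction.

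**Figure D3:**
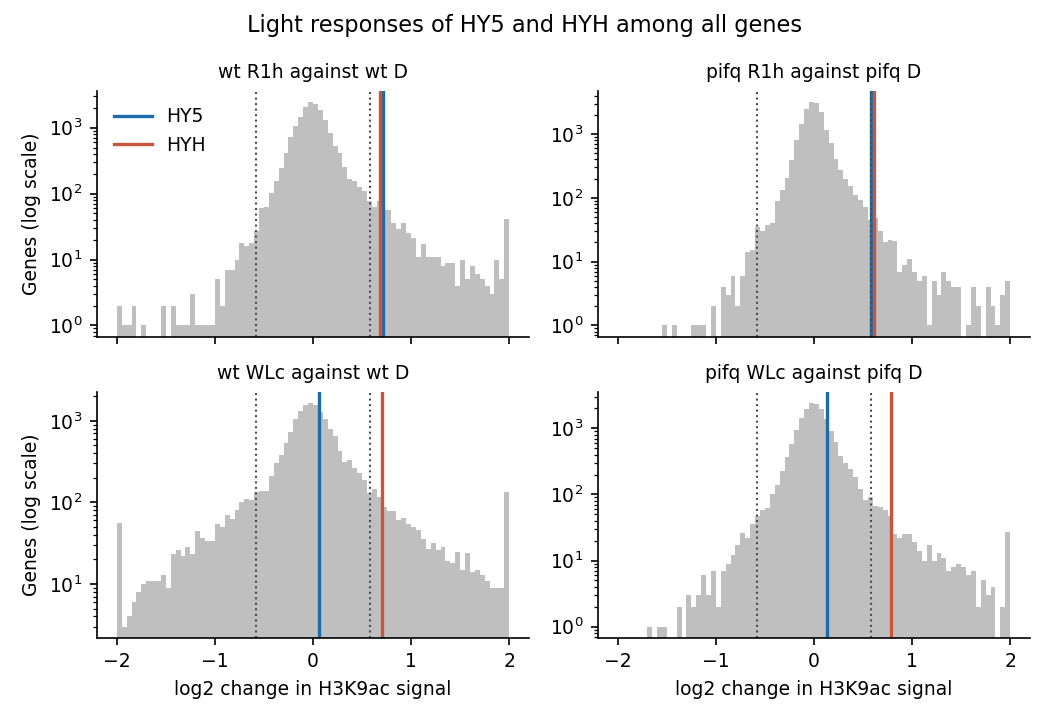
Number of genes (log scale) by log2 change in H3K9ac signal in 4 comparisons, with HY5 in blue, HYH in red and the 1.5-fold limit as dotted lines; the end bins hold all changes beyond 2 on the log2 scale. After red light both genes stand in the upper tail (0.72 and 0.68 in wt), whereas in white light HY5 (0.06 in wt) lies in the bulk of genes and HYH (0.70) in the tail.

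In continuous white light the pair differed. HYH was higher than in darkness by 0.70 in wild type, where 7.22% of genes passed the limit upwards and 6.16% downwards, and by 0.79 in pifq, where 3.08% did. Increases larger than that of HYH were found in 5.51% of genes in wild type and in 1.61% in pifq. HY5 was within the limit in both, with log2 changes of 0.06 and 0.13, and 37.0% and 22.1% of genes had a larger value. The wild-type value of HY5 had the opposite sign (−0.02) under quantile normalization, so no direction can be given for it. Set against R1h in place of darkness, the signal of HY5 in wt WLc was lower (−0.66), past the limit, with 5.47% of genes past it downwards. In pifq WLc against pifq R1h HY5 had −0.45, short of the limit, which 0.458% of genes passed downwards, while 1.24% of genes had a lower value than HY5. HYH had 0.02 in wt WLc against wt R1h and 0.18 in pifq WLc against pifq R1h, both within the limit. The 2 wild-type light groups were compared with the same dark group, so their increases are not independent of each other. The groups also differ in the colour, strength and duration of light, which cannot be told apart.

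Between genotypes under the same light, neither gene passed the limit. In darkness, where the PIF quartet is most abundant in wild type, pifq against wt gave −0.06 for HY5 and −0.01 for HYH, and both were above 0 (0.01 and 0.06) when the groups were scaled to reference genes. In that comparison 8.87% of genes passed the limit in either direction, 4.54% upwards and 4.33% downwards. In R1h the values were −0.19 and −0.08, with 5.94% of genes past the limit, and 14.1% and 30.5% of genes had lower values. In WLc they were 0.01 and 0.07, with 1.21% of genes past the limit. The genotype difference in the white-light response was 0.07 for HY5 and 0.09 for HYH. Both had the opposite sign, −0.03 and −0.01, when scaled to reference genes, and 11.1% of genes differed by at least 1.5-fold in either direction. How large a difference the pooled libraries could have shown is unknown.

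Next to these peaks, the nearest separate peaks did not follow the same order of groups. AT5G11250, which lies downstream of HY5 and reaches into its peak, has 2 peaks of its own. The nearer, from 3591356 to 3591957, had a signal of 0.4995 in wt D, 0.411 in wt R1h and 0.717 in wt WLc. Its log2 change after red light was −0.24, against 0.72 at HY5. In pifq it had 0.665 in D, 0.707 in R1h and 0.652 in WLc. The farther one, from 3588922 to 3589414, had 0.635, 0.572 and 0.166 in wt D, R1h and WLc. At HYH, the peak of AT3G17626 had 0.858 in wt D, 0.918 in wt R1h and 0.903 in wt WLc. On the other side BSH, which encodes a SNF5-type subunit of chromatin remodelling complexes, had 0.748, 0.721 and 0.802 in its stronger peak. IAA31, between BSH and HYH, has no peak in the table, and neither do AT5G11290, AT3G17620, CHX19 and AT3G03515, the other genes within 5 kb.

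No other listed bZIP gene with a peak passed the limit in red light. The table has a peak for 49 of 63 other listed members of the family, and 0 of them passed it in either direction in wt R1h or in pifq R1h, where 3.41% and 1.41% of all genes passed it upwards. At these shares few would be due among 49 genes, so the count does not set the family apart from other genes. Their changes in wild type ran from −0.40 at bZIP44 to 0.30 at ABF2, a factor of abscisic acid responses, with a median of −0.05. In pifq R1h they ran from −0.35 to 0.30 with a median of 0.00. ABF1, another such factor, went from 0.443 in wt D to 0.322 in wt R1h (−0.39). In wt WLc against wt D, 0 were higher and 4 lower, where 7.22% of all genes were higher and 6.16% lower. These 4 were bZIP48 (−1.22), bZIP44 (−1.02), ABI5 (−0.82), of seed abscisic acid signalling, and FD (−0.75), the partner of florigen, of which ABI5 and FD are named because of the small count and ABI5 is also on the list of HY5 targets. In pifq D against wt D, 2 were lower, bZIP3 (−1.04) and bZIP48 (−0.69), and 0 higher, where 4.33% of all genes were lower and 4.54% higher.

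**Figure D4:**
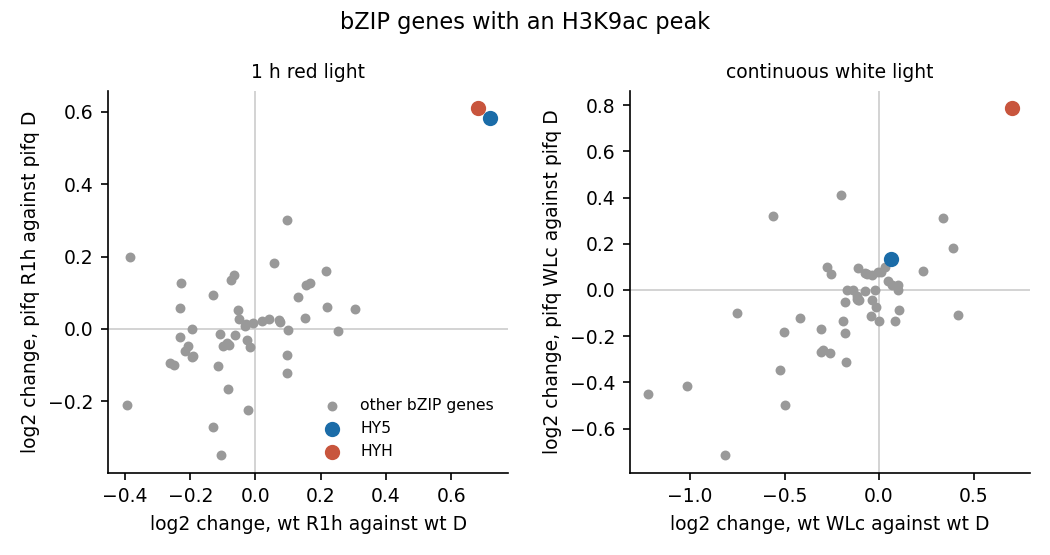
log2 change of the H3K9ac signal on light exposure in pifq (vertical axis) against wild type (horizontal axis) for 1 h of red light (left) and continuous white light (right), with HY5 in blue, HYH in red and each of 49 other bZIP genes as a grey point. After red light the pair lies apart from the others, whose highest value in wild type is 0.30, and in white light only HYH does.

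Upstream of HY5 and HYH, genes of the degradation machinery showed a mixed picture. Of 12 genes of the COP1, SPA, DET1 and RUP group, all of which have a peak, 2 were higher in wt R1h and 0 lower, with a median of 0.12 against 0.00 for all genes, of which 3.41% were higher and 0.628% lower. For SPA1, which encodes a partner of COP1, the signal was 0.419 in wt D against 0.944 in wt R1h. Its relative SPA3 was at 0.455 and 0.760 in these groups. RUP2, a repressor of the UV-B receptor, was within the limit (0.48). COP1 itself had 0.892 in wt D, 0.897 in wt R1h and 0.839 in wt WLc. In pifq R1h against pifq D, SPA1 was the 1 member higher, as were 1.41% of all genes. In pifq D against wt D, 0 of 12 passed the limit, which 8.87% of all genes passed in either direction, with RUP1 at −0.27, SPA4 at −0.22 and RUP2 at −0.17. Of the 8 photoreceptor genes, 0 passed the limit in red light or in pifq D, where 3.41% of all genes were higher in wt R1h, 1.41% in pifq R1h, and 8.87% passed it either way in pifq D. Those with the largest values in red light were CRY2 (−0.24), PHYE (0.22) and PHYB (−0.20). In pifq D, PHYB had −0.47, PHYE 0.23 and PHYD −0.18.

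Genes for B-box proteins, several of which bind HY5, spread more widely. Of 11 genes with a peak, 3 were higher in wt R1h and 2 lower (median 0.20), against 3.41% and 0.628% of all genes. In pifq R1h against pifq D 4 were higher and 0 lower (median 0.33), against 1.41% and 0.368%. The signal of BBX25 in wt D was 0.0211, against 0.624 in wt R1h, that of BBX31 was 0.0899 against 0.573, and that of BBX30 was 0.0683 against 0.458. In pifq D against wt D, 1 of the 11 was higher and 2 were lower (median −0.13), against 4.54% and 4.33% of all genes. BBX30 (−0.33) and BBX31 (−0.13) were within the limit there, and BBX25 (2.37) was higher. Lower in wt R1h were BBX23 (−1.80) and BBX20 (−0.64), of which BBX20 is named because of the small count. Those lower in pifq D were BBX23, with 0.431 in wt D against 0.0339 in pifq D, and BBX29, with 0.899 against 0.434 and with 0.957 in pifq R1h.

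**Figure D5:**
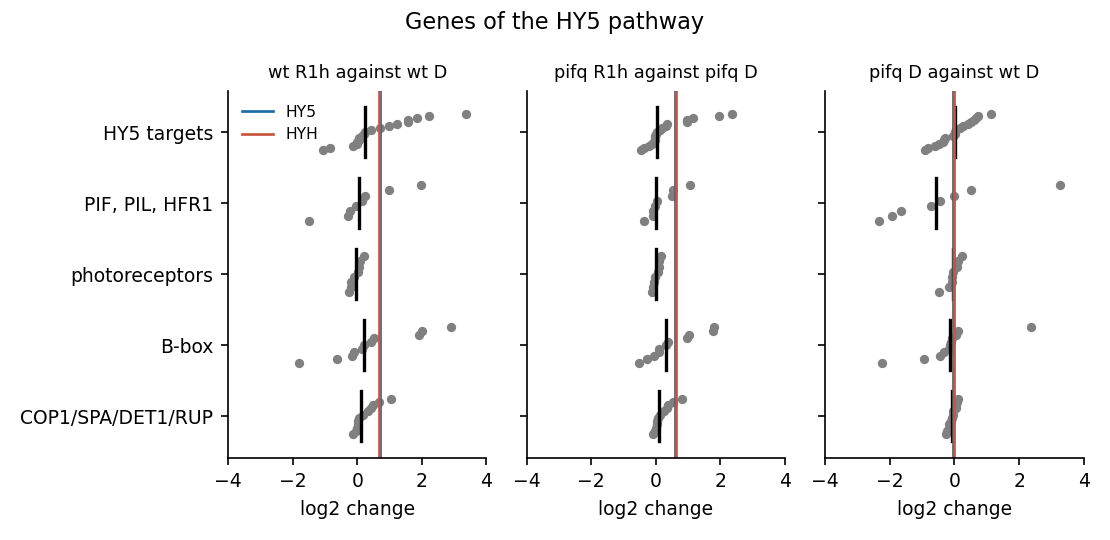
log2 change of the H3K9ac signal for each gene with a peak (points) of 5 lists of the HY5 pathway in 3 comparisons, with list medians as black bars and the values of HY5 and HYH as blue and red lines. In red light the pair exceeds the list medians, which reach 0.23 in wild type, and in darkness the pair differs little between genotypes (−0.06 and −0.01) while PIF and B-box genes spread widely.

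Of 10 PIF and related transcription factor genes 8 have a peak. In wt R1h 2 were higher and 1 was lower (median 0.07), against 3.41% and 0.628% of all genes. In pifq D 1 was higher and 4 were lower than in wt D (median −0.58), against 4.54% and 4.33%. PIF7 was listed at the lowest value of the group in wt D, and its signal was 0.215 in wt R1h and 0.620 in pifq D. The dark and red-light signals in wild type were 0.285 and 0.631 for PIF8 and 0.929 and 0.282 for PIL1, a shade marker gene. In pifq D, PIL1 was at 0.128, and PIF3, one of the mutated loci, had 0.214 against 1.02 in wt D. The other 2 that were lower were HFR1 (−1.66), an atypical bHLH gene, and PIF1 (−0.72), also mutated in pifq, named because of the small count.

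Of 28 genes known as targets of HY5, 19 have a peak, and of these 8 were higher and 2 lower in wt R1h (median 0.23), against 3.41% and 0.628% of all genes. In wt WLc 9 were higher and 3 lower (median 0.57), against 7.22% and 6.16%. Among the 8, MYB12, a regulator of flavonol synthesis, was at the lowest value of the group in wt D. F3H, an enzyme gene of flavonoid synthesis whose peak is entered for 2 genes, was higher in wt R1h than in wt D by 3.35 on the log2 scale. In the same groups, the microRNA gene MIR163 was at 0.805 and 0.117, and ELIP1, of photoprotection, at 0.749 and 0.157. ELIP1 was at 0.159 in wt WLc, close to its dark level as HY5 was in wild type, whereas F3H was at 0.496 and MIR163 at 0.522. In pifq the likeness to HY5 was absent. There ELIP1 was highest in WLc, at 0.276 against 0.166 in R1h. Its log2 change in pifq WLc against pifq D was 1.51, where HY5 had 0.13. In pifq R1h against pifq D, 5 of the 19 were higher and 0 lower (median 0.02), against 1.41% and 0.368% of all genes, and the 5 included MIR163 (2.35) and F3H (1.94). The 2 targets that were lower in wt R1h were FHY1 (−0.84) and FHL (−1.06), which carry phytochrome A into the nucleus and are named because of the small count. In pifq D 4 targets were higher and 3 lower than in wt D (median 0.03), against 4.54% and 4.33% of all genes. GUN5, of chlorophyll synthesis, had 1.12, ELIP1 −0.91 and MIR163 −0.83. CHS, the first enzyme of flavonoid synthesis and a classical HY5 target, is not among the genes with a peak analysed here.

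Markers of other cells also differed between the groups. In whole seedlings, fewer cells of a type and less signal per cell cannot be told apart. Of 5 listed genes of stomatal development, 3 have a peak, SPCH, TMM and STOMAGEN, and these need not mark the same cells. Their summed signal was 1.07 in wt D, 1.73 in wt R1h, 2.38 in wt WLc, 1.91 in pifq D, 2.03 in pifq R1h and 2.49 in pifq WLc. In wt R1h against wt D, 2 of these 3 were higher, SPCH (0.66) and TMM (0.80), against 3.41% of all genes. STOMAGEN was within the limit there (0.13) and had the largest of the 3 values in pifq D against wt D (0.86). In pifq R1h against pifq D 0 of 3 were, against 1.41%, and in pifq D all 3 were higher than in wt D, against 4.54%. The 4 of 10 root markers with a peak had sums of 3.39, 3.40, 2.49, 2.66, 2.95 and 2.92 in the same order of groups, and 0 of 4 passed the limit in red light in either genotype, against the same shares of all genes. In wt WLc against wt D 2 of the 4 were lower, TIP2;3 (−1.997) and SHR (−0.695), against 6.16% of all genes. The same 2 were lower in pifq D against wt D (−1.32 and −0.62), against 4.33%. SCR and GL2 were within the limit in both comparisons. None of 4 seed storage genes had a peak. Their part in the values of HY5 and HYH was not tested.

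The genes whose 6 values were most like those of each member were ranked by Pearson's r of log2(signal + pseudocount) over the 6 groups. Only genes that vary at least 1.5-fold and reach the median signal were considered, 1610 for HY5 and 1611 for HYH, without those entered for the same peak. With only 6 points, which come from the same libraries for every gene, a high r is easily reached, and it is a description without a p. Closest to HY5 were AT5G13940 (r 0.963), SMZ (0.956), AT3G57010 (0.942), ERF38 (0.941) and AT1G80130 (0.940). SMZ, an AP2-type floral repressor gene, had 0.399, 0.794 and 0.479 in wt D, R1h and WLc and 0.487, 0.711 and 0.484 in pifq. AT5G13940 had 0.530, 0.915 and 0.612 in wild type and 0.489, 0.751 and 0.626 in pifq. ERF38, an ERF factor gene, had 0.521, 0.828 and 0.495 in wild type. All 5 were highest in wt R1h, like HY5, which a choice by r with HY5 favours. Closest to HYH were AT2G19650 (0.996), SOUL-1 (0.993), AT2G40460 (0.993), FLS1 (0.993) and HSP18.2 (0.988). The SOUL-1 peak is also entered for AT2G37975. FLS1, which encodes a flavonol synthase and is on the list of HY5 targets, had 0.149, 0.580 and 0.580 in wt D, R1h and WLc and 0.179, 0.488 and 0.761 in pifq. HSP18.2, a small heat shock protein gene, had 0.341, 0.855 and 0.722 in wild type. An r of at least 0.95 was found for 34 genes with HYH and for 2 with HY5. Between the pair itself r was 0.517, which put HYH at rank 209 for HY5 and HY5 at rank 590 for HYH.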

How the data were processed

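H3K9ac libraries of whole seedlings were sequenced by the authors, who aligned the reads with Bowtie2 (TAIR9 in the methods, TAIR10 in the submitters' notes). They called enriched regions with BayesPeak and compared them with DiffBind. By the methods, each region was given the gene whose start site was nearest. The table used here departs from this, with 1933 of 17319 distinct peaks entered for more than 1 gene. The deposited signal is a value per bp of peak, 1 per peak and group. How the 3 libraries of a group were combined and scaled is not given in the sources used here. Totals over all entries differed by at most 2.08% between groups, and from 21 to 79 entries per group were at the lowest value of that group.

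Values were analysed with Python 3.11.15, numpy 2.4.6 and pandas 2.3.3. A gene with several peaks (1616 genes) was represented by the one with the highest mean. The planned limma test of single libraries could not be applied to 1 value per group, so a 1.5-fold limit on log2(signal + 0.0717) was used without a test. How the limit behaves under spread between libraries was not tested. In the TAIR10.1 reference, 99.5% of the genes were found and 99.2% of entries overlapped their gene. Whether peak starts count from 0 or 1 is not stated. Members and lists were chosen with earlier results of these data known. Named genes are the members, genes within 5 kb of one, the 5 most like each, and in each list the 3 with the largest change in wt R1h and in pifq D against wt D. Exceptions are given as such. Other pseudocounts, scalings, a filter on low peaks, another limit and Spearman's rho were tried as alternatives.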

Additional observations from a re-analysis of the deposited data

How the results depend on the processing

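Of 22 HY5 and HYH results, 15 kept their side of the limit under all 8 alternatives, all of them within it, and no result past the limit changed direction. Among values near 0, signs changed for HYH in wt WLc against wt R1h (equal medians), for HY5 in wt WLc against wt D (quantile normalization), and, scaled to reference genes, for both genes in pifq D against wt D and in the genotype difference in white light and for HY5 in pifq WLc against wt WLc (−0.01), which also turned without the weakest peaks. With 5 times the pseudocount, which shrinks every change, 6 results no longer passed the limit, and these were all that had passed it. These were HY5 in wt R1h against wt D (0.53) and in wt WLc against wt R1h (−0.49), and for HYH both light groups of wild type against wt D (0.49 in R1h, 0.50 in WLc) and both of pifq against pifq D (0.43 and 0.56). HY5 in pifq R1h against pifq D, just short of the limit, passed it with a smaller pseudocount (0.64), with none (0.65), scaled to reference genes (0.59) and as signal times peak length (0.64). Equal medians, quantile normalization and leaving out the weakest peaks changed no call at either gene. A 2-fold limit was not among the 8 alternatives and was applied only to counts of all genes. No change at HY5 or HYH reached 2-fold. With the pseudocount the largest were 1.64-fold for HY5 (wt R1h against wt D) and 1.73-fold for HYH (pifq WLc against pifq D). The count of all genes higher in wt R1h, 603, became 198 with 5 times the pseudocount, 357 with quantile normalization, 211 without the weakest peaks and 209 at a 2-fold limit. In the same order without quantile normalization, 1276 in wt WLc became 642, 514 and 559, 249 in pifq R1h became 76, 61 and 69, and 544 in pifq WLc became 193, 114 and 182. Of the 5 genes most like HY5, 3 had the same rank order of groups (Spearman's rho 1), and 0 of the 5 most like HYH. No paired analysis was possible because the columns carry no replicate numbers, and no replicate could be left out for the same reason.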

Other observations

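The HY5 peak was set beside other long peaks and other peaks entered for several genes. Of 66 peaks of at least 4000 bp, 2 (3.03%) were at least 1.5-fold higher in wt R1h than in wt D and 0 lower. Of 165 peaks entered for 3 or more genes 4 (2.42%) were higher and 0 lower, and of all 17319 peaks 785 (4.53%) were higher and 162 (0.935%) lower. HY5 was in both groups, with 0.72. In pifq R1h against pifq D, 0 of the 66 and 0 of the 165 passed the limit, and HY5, with 0.58, had the highest value in each. Of all 17319 peaks, 332 (1.92%) were higher there and 119 (0.687%) lower, so few would be due in groups of this size. A peak of 5197 bp, entered for 3 genes including the B-box gene BBX24, had 0.52 in wild type and 0.38 in pifq after red light.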
